A study of Mus musculus with 6 samples.

Results

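The NR4A nuclear receptors are the products of 3 related genes, Nr4a1 (Nur77), Nr4a2 (Nurr1) and Nr4a3 (Nor-1). The members were the rows of the read count table whose Ensembl gene ID maps to these symbols: Nr4a1 (ENSMUSG00000023034, chromosome 15), Nr4a2 (ENSMUSG00000026826, chromosome 2) and Nr4a3 (ENSMUSG00000028341, chromosome 4). All 3 were found among 35275 gene IDs, and all passed the filter on low counts that left 13602 genes for testing. The samples are cultures of Melb-a, an immortal melanoblast line from C57BL/6J mouse skin that can be driven to make pigment. Every culture, control or treated, was placed in DMEM with 10% serum, 2 nM NDP-alpha MSH, a stable melanocortin that activates MC1R, and 200 nM PMA, a phorbol ester that switches on protein kinase C. For 48 h this medium also held DMSO as the vehicle (3 samples) or 10 µM iBRD9 (3 samples), an inhibitor of the BRD9 bromodomain. BRD9 belongs to one form of the chromatin remodeler SWI/SNF. The submitters describe the samples of a group as independent. A single cell line, compound, dose and time were used, with no culture lacking NDP-alpha MSH and PMA among the samples, so the NR4A level before the drive to differentiate was not analysed here.

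NR4A proteins are orphan members of the nuclear receptor superfamily. Their ligand pocket is filled by bulky side chains, so their activity is set mainly by how much receptor a cell makes. Transcription of the genes is switched on within minutes by cAMP, calcium, protein kinase C and growth factor signals, largely through the cAMP response element (CRE) binding protein CREB. The proteins bind DNA as monomers at a site called NBRE, as pairs, or, for NR4A1 and NR4A2, together with the retinoid X receptor. In melanocytes, signalling from MC1R through cAMP induces NR4A genes, and NR4A proteins have been tied there to the repair of ultraviolet damage.

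The promoters are shown because all 3 genes are textbook targets of CREB, and because the genes went in different directions in these cells. Each sequence is the RefSeq window of 300 bases in GRCm38.p6, from 250 bases before to 50 after a transcript start, read in the direction of transcription. All 3 symbols had a single window in the RefSeq table. The Nr4a1 window is chr15:101266596-101266895 on the plus strand, the Nr4a2 window is chr2:57123954-57124253 on the minus strand, and the Nr4a3 window is chr4:48045055-48045354 on the plus strand. Capitals mark the core of the CRE, TGACG on either strand (CGTCA when it lies on the other strand).
Nr4a1: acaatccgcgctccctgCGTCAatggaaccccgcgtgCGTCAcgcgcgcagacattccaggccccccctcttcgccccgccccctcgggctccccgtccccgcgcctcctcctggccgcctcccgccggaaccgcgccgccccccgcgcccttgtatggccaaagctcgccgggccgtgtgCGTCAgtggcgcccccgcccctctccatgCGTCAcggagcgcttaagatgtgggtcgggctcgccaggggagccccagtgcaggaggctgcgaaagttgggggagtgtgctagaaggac
Nr4a2: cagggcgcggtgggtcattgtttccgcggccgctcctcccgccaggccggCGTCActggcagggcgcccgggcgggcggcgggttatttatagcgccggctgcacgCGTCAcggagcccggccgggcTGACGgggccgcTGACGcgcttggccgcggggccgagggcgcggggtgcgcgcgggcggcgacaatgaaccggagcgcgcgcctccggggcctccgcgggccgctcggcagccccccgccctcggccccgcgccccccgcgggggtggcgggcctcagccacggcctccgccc
Nr4a3: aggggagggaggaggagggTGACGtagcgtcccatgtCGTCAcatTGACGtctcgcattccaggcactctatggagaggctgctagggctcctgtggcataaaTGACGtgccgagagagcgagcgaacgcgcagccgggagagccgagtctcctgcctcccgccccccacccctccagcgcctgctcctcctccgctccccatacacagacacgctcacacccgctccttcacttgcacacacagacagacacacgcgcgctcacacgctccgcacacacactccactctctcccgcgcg
Each window held 4 matches of the core. The match nearest to the start lay 40 bases before it in Nr4a1, 111 bases before it in Nr4a2 and 147 bases before it in Nr4a3, counted to the first base of the match. In Nr4a1 all 4 lay on the minus strand and each was the end of the 7-letter element TGCGTCA, which resembles an AP-1 site. Neither of the other windows had that element (0 matches each). Of 32851 RefSeq windows of this length, 20.8% had at least 1 core, 1.03% had at least 3 and 0.231% had at least 4, while TGCGTCA was found at least once in 2.12% and 4 times in 1 window, that of Nr4a1. The full palindrome TGACGTCA, the AP-1 site TGANTCA, the NBRE AAAGGTCA and the CArG box had 0 matches on either strand in all 3 windows, against at least 1 match in 1.79%, 7.81%, 1.51% and 1.63% of all windows. The core contains a CpG, and the windows are rich in G and C (72.3% in Nr4a1, 81.7% in Nr4a2, 64.7% in Nr4a3). These are letter matches and not measured binding sites.

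**Figure D1:**
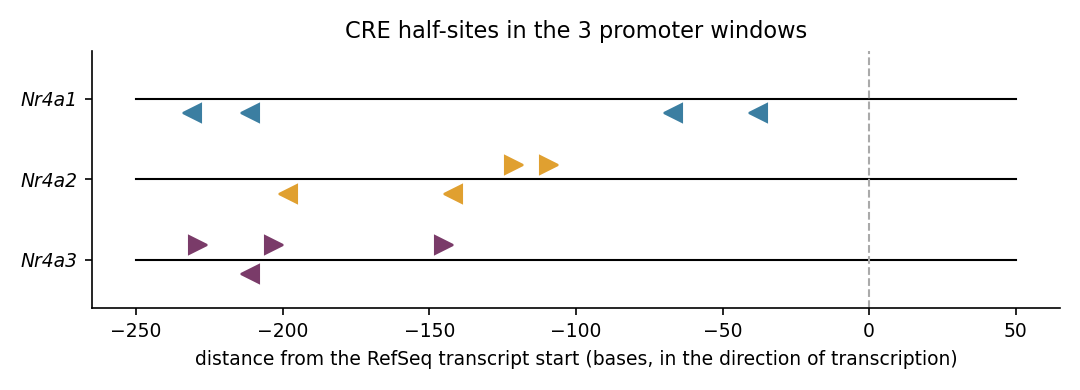
Positions of the CRE core in the promoter window of each gene, as distance from the RefSeq transcript start in bases. Arrows above a line are on the strand of transcription and arrows below it on the other strand. Each gene has 4, and all lie before the start, with those of Nr4a1 reaching closest to it.

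The 6 libraries held 22846391 to 29680952 counts. Of the 10 melanocyte marker genes checked, all 10 passed the filter, with summed levels of 17301 to 19750 CPM (read counts relative to library size, after TMM scaling) in DMSO and 15787 to 17402 CPM in iBRD9, so markers of the labelled cell type were present in both groups. Within that sum 6 markers fell, 1 rose and 3 did not pass, with Tyr going from 537 ± 14.5 to 87.8 ± 3.72 CPM (-2.61), Tyrp1 from 5576 ± 408 to 3517 ± 186 CPM (-0.66) and Dct from 6074 ± 394 to 7525 ± 449 CPM (0.31). The markers named with values here were chosen after those were seen. Leukocyte markers, of interest since immune cells make much NR4A mRNA, summed to at most 7.77 CPM in any library over 6 genes, with Ptprc and Cd3e at 0 counts throughout. Keratinocyte markers summed to at most 4.42 CPM (6 genes, with Krt5 and Krt1 at 0). The 5 fibroblast markers summed to 75.2 to 99.7 CPM in DMSO and 131 to 145 CPM in iBRD9, a sum carried by Dcn (51.2 ± 7.38 to 120.5 ± 7.09 CPM). They did not move together: 2 rose, 2 did not pass and Col1a2 fell from 29.6 ± 6.02 to 7.64 ± 0.699 CPM (-1.95). The 4 endothelial markers summed to 1.46 to 1.60 and 4.42 to 6.16 CPM. The part of these melanocyte, fibroblast and endothelial differences in the NR4A values was not tested. Mitochondrial transcripts took 3.53% ± 0.159 of counts in DMSO and 2.77% ± 0.329 in iBRD9 (SD, n = 3), and their part was not tested either. In bulk RNA a change in the number of cells that make a transcript cannot be told apart from a change per cell. Among the controls, DMSO replicate 1 was unlike replicates 2 and 3, so the values without it are given below. Its counts differed from theirs with a chi-square per degree of freedom of 29.2 and 37.5, against 3.06 between replicates 2 and 3. In the iBRD9 group replicate 1 also stood apart, by less (6.33 from each of replicates 2 and 3, against 1.93 between those).

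Nr4a3, the dominant member, fell with iBRD9 by more than 3-fold, while Nr4a1 and Nr4a2 rose by about 2-fold. Nr4a3 stood at 699, 813 and 801 CPM in DMSO replicates 1, 2 and 3 and at 256, 241 and 235 CPM in the iBRD9 replicates. All iBRD9 libraries lay far below all DMSO libraries, and DMSO replicate 1 was the lowest of its group. The means were 771 ± 62.8 and 244 ± 11.1 CPM (SD, n = 3), which gives -1.66 as the log2 fold change (SE 0.0757, edgeR quasi-likelihood adjusted p = 2.91e-06), that is 3.16-fold lower. These values rest on 16092 to 20607 reads per DMSO library and 5560 to 7894 per iBRD9 library.

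Nr4a1, the founding member, induced in most cell types by growth factors and phorbol esters, stood at 46.0, 33.3 and 29.5 CPM in DMSO and 69.9, 71.1 and 84.0 CPM in iBRD9. The groups did not overlap, and here DMSO replicate 1 was the highest of its group. The means were 36.3 ± 8.62 and 75.0 ± 7.81 CPM (SD, n = 3), and the log2 fold change was 1.05 (SE 0.155, edgeR adjusted p = 0.000605), from 700 to 1059 reads per DMSO library and 1777 to 2154 per iBRD9 library. Nr4a2, best known for its role in dopamine neurons, was rare at 5.21, 4.69 and 4.26 CPM in DMSO and 9.29, 8.48 and 8.23 CPM in iBRD9. Its groups did not overlap either. The means were 4.72 ± 0.476 and 8.67 ± 0.551 CPM (SD, n = 3), with 0.88 as the log2 fold change (SE 0.122, edgeR adjusted p = 0.000444), from 101 to 120 and 195 to 286 reads per library. In CPM the rises were small beside the fall: Nr4a1 gained 38.8 CPM and Nr4a2 3.95 CPM, while Nr4a3 fell by 527 CPM.

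**Figure D2:**
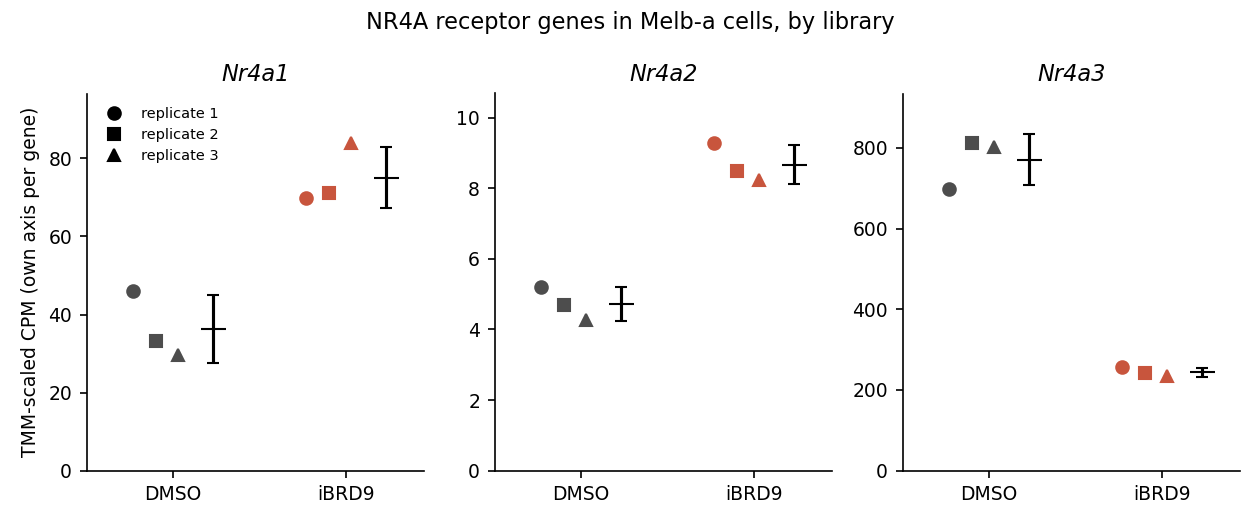
TMM-scaled CPM of each NR4A gene in each library, on an axis from 0 of its own for each gene; symbols give the replicate number and the bars the mean ± SD of 3 libraries. Nr4a1 and Nr4a2 are higher in all iBRD9 libraries than in any DMSO library, and Nr4a3 is lower, from 699 to 813 CPM down to 235 to 256 CPM.

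All 3 members were called, where 60.7% of all tested genes were called (29.8% higher and 30.9% lower) and 68% had groups that did not overlap. A call by itself is therefore common in this comparison. The median log2 fold change of all tested genes was 0.01. Without DMSO replicate 1 the log2 fold changes were -1.73 for Nr4a3, 1.24 for Nr4a1 and 0.95 for Nr4a2. On the log2 CPM scale that library lay 0.121 of the way from the other DMSO libraries to the iBRD9 mean for Nr4a3, 0.231 for Nr4a2 and 0.440 for Nr4a1. The median of this fraction was 0.203 over the 806 genes that differed downward by 2-fold or more between iBRD9 and these other DMSO libraries, and 0.396 over the 1675 genes that differed upward.

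The ratio of a pair of NR4A genes within a library needs no scaling between libraries, and it shows how far the members parted. The log2 ratio of Nr4a3 to Nr4a1 counts was 3.93, 4.61 and 4.76 in the DMSO replicates and 1.87, 1.76 and 1.48 in the iBRD9 replicates. It fell by 2.73 on the log2 scale, from 4.43 ± 0.446 to 1.71 ± 0.201 (SD, n = 3; two-sided exact permutation p = 0.1, Benjamini-Hochberg adjusted over 3 ratios 0.15). Lower values were found in all 3 iBRD9 libraries, and 0.1 is the smallest p that 3 against 3 libraries can give. The log2 ratio of Nr4a3 to Nr4a2 counts was 7.07, 7.44 and 7.56 in DMSO and 4.79, 4.83 and 4.83 in iBRD9. It fell by 2.54, from 7.35 ± 0.255 to 4.82 ± 0.0256 (SD, n = 3; exact permutation p = 0.1, adjusted 0.15), again without overlap.

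By contrast, no difference was detectable in the ratio of Nr4a2 to Nr4a1. Its log2 value was -3.14, -2.83 and -2.79 in DMSO and -2.91, -3.07 and -3.35 in iBRD9, and the groups overlapped. The means were -2.92 ± 0.192 and -3.11 ± 0.222 (SD, n = 3; exact permutation p = 0.3, adjusted 0.3), a difference of -0.19, which was within the SD of either group. This does not show that the 2 genes rose by the same factor: leaving out each library in turn moved the difference between -0.30 and -0.07.

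**Figure D3:**
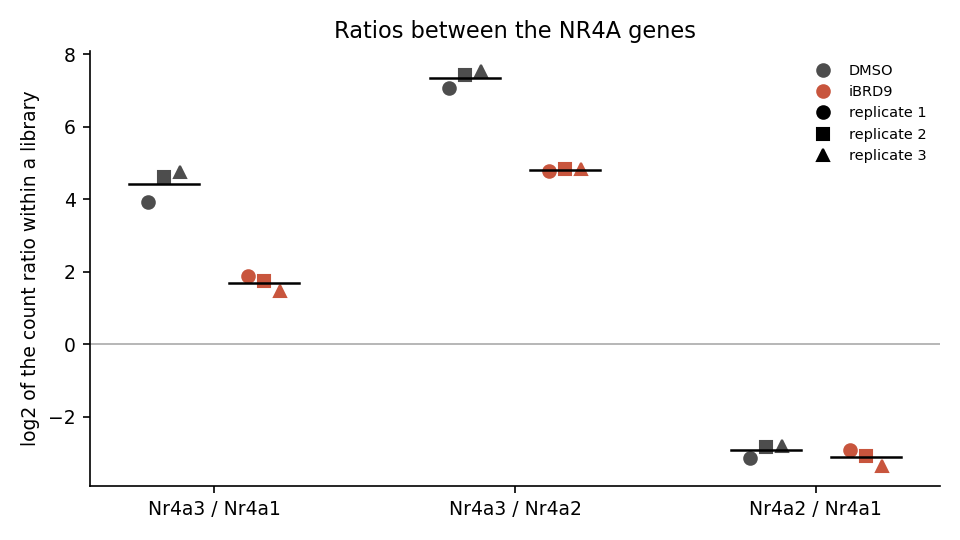
log2 of the count ratio between pairs of NR4A genes in each library, with the replicate number as the symbol and the group mean as a line. Both ratios with Nr4a3 as the numerator are lower in every iBRD9 library, while the Nr4a2 to Nr4a1 ratio overlaps between the groups (means -2.92 and -3.11).

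To compare levels between genes, CPM was divided by the length of each gene's merged exons (3509 bases for Nr4a1, 4059 for Nr4a2 and 5987 for Nr4a3). No other annotated gene shares exon bases with any of the members. The order was Nr4a3, Nr4a1, Nr4a2 in all 6 libraries. In DMSO, Nr4a3 had 129 ± 10.5 CPM per kb, 12.5 times the 10.3 ± 2.46 of Nr4a1, and Nr4a2 had 1.16 ± 0.117 (SD, n = 3). In iBRD9 the levels were 40.8 ± 1.86, 21.4 ± 2.22 and 2.14 ± 0.136 CPM per kb, so that Nr4a3 remained first by a factor of 1.91. Among all tested genes with a length (13519), Nr4a3 held ranks 257 to 284 by CPM per kb in the DMSO libraries and ranks 962 to 1138 in the iBRD9 libraries. Nr4a1 moved up, from ranks 4044 to 5605 in DMSO into ranks 2123 to 2568 in iBRD9. Nr4a2 stayed among the rarer transcripts, at ranks 10232 to 10361 in DMSO and 9337 to 9540 in iBRD9.

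The sum of the 3 genes was 131, 146 and 143 CPM per kb in DMSO and 65.0, 62.6 and 65.2 in iBRD9. The total of NR4A transcripts was thus lower in every treated library, with means of 140.2 ± 8.10 and 64.3 ± 1.45 CPM per kb (SD, n = 3). Nr4a3 made up 91.7% ± 2.35 of the sum in DMSO and 63.4% ± 2.94 in iBRD9, and the share of Nr4a1 went from 7.45% ± 2.23 to 33.3% ± 3.14 and that of Nr4a2 from 0.834% ± 0.129 to 3.32% ± 0.204. The shares of the groups did not overlap for any of the 3 genes. With the shorter exon models of the basic annotation, Nr4a3 had 90.0% ± 2.80 and 58.5% ± 3.12.

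**Figure D4:**
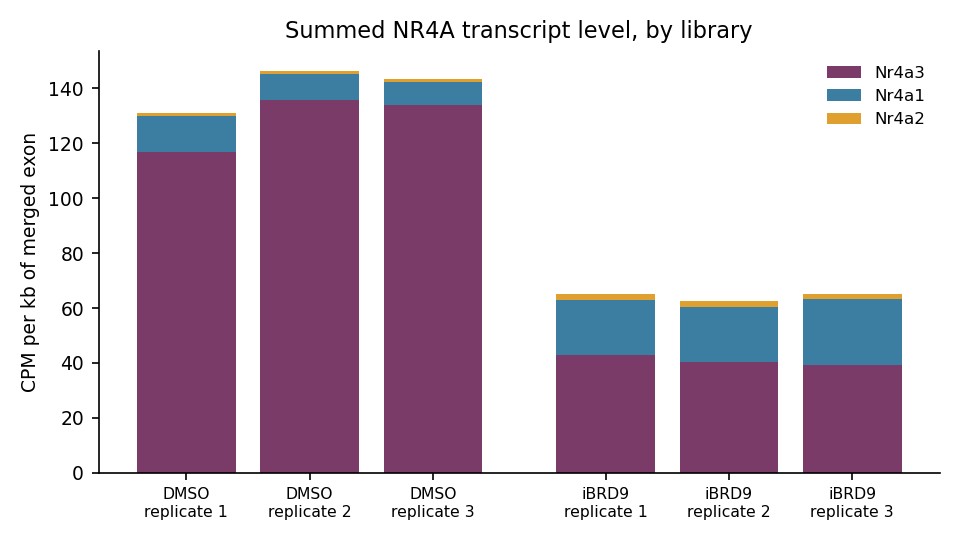
Summed level of the NR4A genes in each library, in CPM per kb of merged exon, with each gene's part of the bar in colour. The DMSO bars reach 131 to 146 and the iBRD9 bars 62.6 to 65.2, and the part of Nr4a1 is larger under iBRD9.

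The other 46 mouse nuclear receptors give the family background. Of these, 30 passed the filter, of which 6 rose, 14 fell and 10 did not pass the test, with a median log2 fold change of -0.32, where 29.8% of all tested genes were higher and 30.9% lower. By CPM per kb Nr4a3 was the most abundant nuclear receptor gene in all 6 libraries. The next in DMSO were Rxra (28.0 ± 2.17), the shared partner of many nuclear receptors, and Nr1d2 (27.6 ± 0.670), a repressor of the circadian clock, which did not differ beyond their spread. Nr4a1 held rank 10 by its mean in DMSO, where its libraries (8.41 to 13.1) did not overlap those of Ppard (13.6 to 14.8). They did overlap those of Nr2f6 (7.93 to 9.60), Nr2f2 (6.85 to 9.56) and Nr1d1 (5.01 to 8.47). In iBRD9 Nr4a1 held rank 4, with libraries at 19.9 to 23.9. These overlapped those of Rxra (21.5 to 22.5), Esrra (20.7 to 21.1) and Nr1h2 (19.2 to 20.4). Nr4a2 went from rank 25 to rank 21. Its DMSO libraries (1.05 to 1.28) overlapped those of Nr3c2 (1.26 to 1.56), Rarb (0.668 to 1.31) and Ppara (0.668 to 1.19). Its mean in iBRD9 was within 1 SD of that of Nr2f1 (2.29 ± 0.185). The NR4A genes together made up 36.8% ± 0.544 of all nuclear receptor transcripts per kb in DMSO and 23.6% ± 0.275 in iBRD9 (SD, n = 3), while the other receptors summed to 241 ± 15.8 and 208.5 ± 2.36 CPM per kb.

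Ordered by log2 fold change among the 33 tested receptor genes, Nr4a3 had the fifth largest fall, Nr4a1 the third largest rise and Nr4a2 the fourth. The receptors with larger falls were Nr1i2 (-3.00), Pparg (-2.15), Esrrg (-2.00) and Esr1 (-1.69), of which Nr1i2, Pparg and Esr1 were named after their values were seen. Their mean levels in DMSO were at most 4.22 CPM per kb, against 129 for Nr4a3. The order is by point estimate, and Esr1 (SE 0.378) cannot be placed above or below Nr4a3 (-1.66, SE 0.0757). Esrrg, an orphan receptor of oxidative metabolism, fell from 26.2 ± 3.23 to 6.54 ± 0.397 CPM, and Thrb, a thyroid hormone receptor, from 18.8 ± 1.58 to 8.69 ± 0.295 CPM (-1.12). The larger rises were in Nr6a1, the germ cell nuclear factor (1.30, from 4.60 ± 0.221 to 11.3 ± 0.596 CPM), and in Vdr, the vitamin D receptor (1.17, from 8.61 ± 1.08 to 19.4 ± 1.12 CPM). The rise of Vdr (SE 0.110) was within error of that of Nr4a1 (1.05, SE 0.155).

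**Figure D5:**
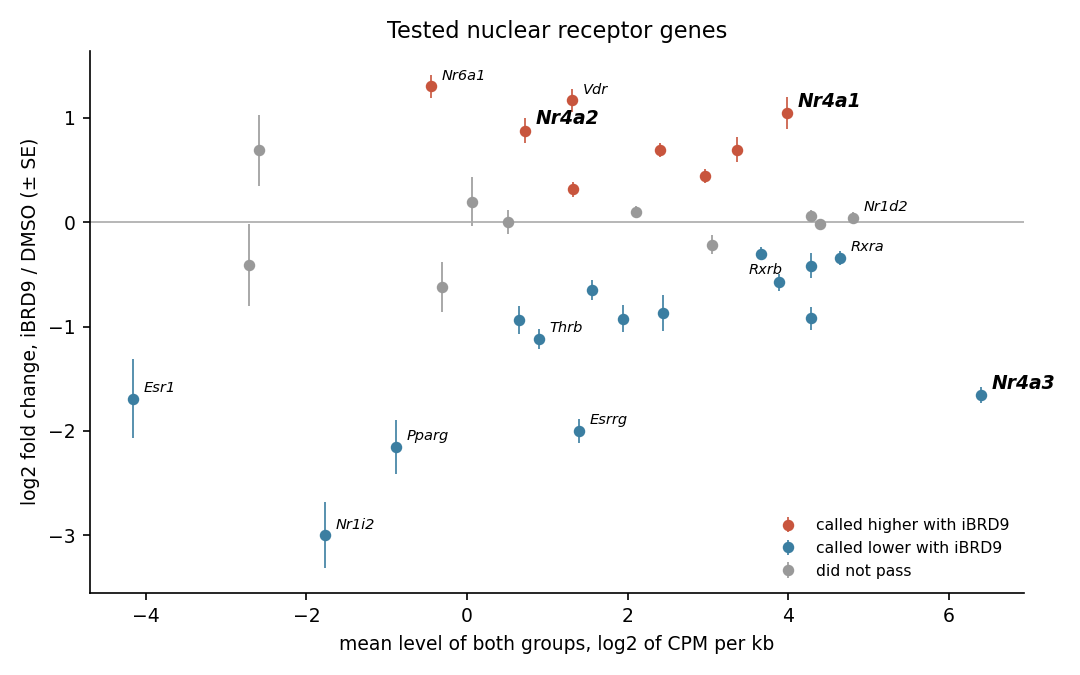
log2 fold change (± SE) of the 33 tested nuclear receptor genes against their mean level in log2 CPM per kb, coloured by the edgeR call at an adjusted p under 0.05. Nr4a3 lies alone at the right, the most abundant receptor gene and among the lower calls, and Nr4a1 and Nr4a2 are among the higher calls.

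The counts of each list below are to be read against the shares over all tested genes, 29.8% called higher and 30.9% lower. In the list of the cAMP and CREB route, 8 of 23 tested genes rose, 10 fell and 5 did not pass (median -0.02, with -0.11 without DMSO replicate 3 and 0.08 with scaling by library size alone). The receptor gene Mc1r fell from 79.4 ± 7.05 to 50.1 ± 1.65 CPM (-0.67, edgeR adjusted p = 0.000183) and Creb1 from 103 ± 6.76 to 86.5 ± 2.73 CPM (-0.26, edgeR adjusted p = 0.00940). The adenylyl cyclase genes Adcy3 (1.31, from 1.94 ± 0.705 to 4.79 ± 1.19 CPM) and Adcy7 (0.60, from 41.8 ± 4.48 to 63.5 ± 0.634 CPM), whose products make cAMP, rose. Adcy9, also a cyclase gene, was lower (-0.17, edgeR adjusted p = 0.0456), a call lost in 11 of 14 alternatives. Among these were DESeq2 (adjusted p = 0.0715), library size alone (adjusted p = 0.370), and the fits without each of DMSO replicates 2 and 3 and iBRD9 replicates 1, 2 and 3 (adjusted p = 0.0648 to 0.171). Adcy6, a further cyclase gene, did not pass at 142 ± 1.16 and 139.8 ± 8.11 CPM (-0.02, edgeR adjusted p = 0.769). Adcy6 and Adcy9 were named after their values were seen. The phosphodiesterase genes Pde4d (-1.73) and Pde4b (-1.35), whose products degrade it, fell. Crem and Sik1, both induced by CREB as the NR4A genes are, did not pass the test: Crem stood at 8.41 ± 1.26 and 8.41 ± 0.459 CPM (0.00, edgeR adjusted p = 0.992) and Sik1 at 53.7 ± 1.58 and 53.1 ± 1.09 CPM (-0.01, edgeR adjusted p = 0.838).

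In the list of protein kinase C, MAP kinase and MEF2 genes, the other route to NR4A transcription, 5 of 23 tested genes rose, 7 fell and 11 did not pass. Over all tested genes 60.7% were called, and a difference from that share was not tested. Library size alone gave 10 rises and 6 falls in this list. The median was 0.02, with 0.13 under library size alone, and 0.06 as the highest of the other settings and 0.01 as the lowest. Mef2c, of the MEF2 factor family that links calcium to Nr4a1 in T cells, rose (0.62, from 27.7 ± 5.86 to 42.4 ± 4.27 CPM). The other MEF2 genes of the list did not rise with it. Mef2d fell (-0.23, from 164 ± 7.74 to 140 ± 7.13 CPM, edgeR adjusted p = 0.0119). Mef2a did not pass (0.02, edgeR adjusted p = 0.822). Mef2a and Mef2d were named after their values were seen. Rps6ka1, a kinase that phosphorylates CREB, rose (0.59, from 13.9 ± 0.874 to 20.9 ± 1.16 CPM). Its relative Rps6ka3, more abundant in both groups, fell (-0.43, from 251 ± 4.84 to 187 ± 3.09 CPM). Rps6ka3 was named after its values were seen. Map2k5, the kinase upstream of ERK5, fell (-1.02, from 53.5 ± 5.39 to 26.4 ± 2.53 CPM), and so did Mapk3, which encodes ERK1 (-0.91, from 172 ± 17.1 to 91.5 ± 2.70 CPM).

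Genes known for early induction by cAMP and related signals, other than the NR4A genes, fell more often than they rose: 14 of 27 tested members fell, 4 rose and 9 did not pass (median -0.28, with -0.17 under library size alone). The share of lower calls was 30.9% over all tested genes. Atf3, a stress-induced repressor, had the largest fall of the members named by the rule (-2.71), from 20.0, 38.5 and 41.0 CPM in the DMSO replicates to 5.65, 5.48 and 4.01 CPM in the iBRD9 replicates. Btg2, a growth arrest gene (1.31, from 1.96 ± 0.570 to 4.89 ± 1.26 CPM), rose as Nr4a1 and Nr4a2 did. So did Cited2, a coregulator that binds CBP (0.95, from 48.8 ± 1.70 to 94.2 ± 5.41 CPM). Its relative Cited1 fell (-0.83, from 134 ± 10.9 to 75.4 ± 2.59 CPM). Cited1 was named after its values were seen. This list shares Sik1, Crem, Pde4b and Pde4d with the list of the cAMP and CREB route.

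Of the partners and coregulators of NR4A proteins, 6 of 17 tested genes were higher, 6 lower and 5 did not pass, near the 29.8% and 30.9% of all tested genes (median -0.07, with -0.14 without a filter, -0.01 as the highest value under the other settings and 0.04 under library size alone). The retinoid X receptor genes, whose products pair with NR4A1 and NR4A2, were lower: Rxra fell from 153 ± 11.9 to 121 ± 2.97 CPM (-0.34, edgeR adjusted p = 0.00281). Rxrb went from 70.5, 93.5 and 101.7 CPM to 66.9, 65.0 and 67.4 CPM (-0.42, edgeR adjusted p = 0.0166) and did not pass without DMSO replicate 2, iBRD9 replicate 1 or iBRD9 replicate 2 (adjusted p 0.0548, 0.0571 and 0.0594). Without DMSO replicate 2, 3 genes of this list were lower. Rxrg had 7, 13 and 11 reads in DMSO and 0, 1 and 1 in iBRD9 and did not pass the filter. Med1 (0.60) and Kdm1a (0.48), a histone demethylase that acts with NR4A2 in a repressor complex, rose, and the coactivator gene Ncoa1 fell (-0.65, from 126 ± 21.3 to 80.7 ± 1.37 CPM).

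The next list holds genes described as NR4A targets in other tissues. Of its 35 symbols, which hold G6pc under both of its names, 16 were tested, of which 4 rose, 4 fell and 8 did not pass. Over all tested genes 60.7% were called, and a difference from that share was not tested. The median was -0.03, from -0.09 without DMSO replicate 3 to 0.29 without a filter. Among metabolic targets known from muscle, the enolase gene Eno3 rose (0.93, from 4.30 ± 0.684 to 8.20 ± 0.198 CPM) and the glycogen synthase gene Gys1 fell (-0.82, from 105 ± 5.57 to 59.3 ± 2.70 CPM). Among those of the cell cycle, E2f1 rose (0.83, from 44.4 ± 5.91 to 79.2 ± 3.00 CPM) and Ccnd2 fell (-0.60, from 443 ± 47.6 to 293 ± 9.13 CPM). Nucleotide excision repair, the process tied to NR4A in melanocytes, had calls near the background of 29.8% higher and 30.9% lower: 9 of 28 tested genes rose, 8 fell and 11 did not pass (median 0.11, with 0.22 under library size alone). Uvssa (1.13) and Ercc6 (1.07), both of transcription-coupled repair, rose, with Ercc6 going from 32.6 ± 6.73 to 68.5 ± 2.39 CPM. Ercc8, of the same process, did not pass at 9.48 ± 0.887 and 8.80 ± 0.799 CPM (-0.10, edgeR adjusted p = 0.458). It was named after its values were seen. Gtf2h1, a subunit of TFIIH (-1.06, from 286 ± 37.5 to 137 ± 2.66 CPM), and Rad23b, a partner of XPC (-0.66), fell.

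For each NR4A gene, the genes with the most similar profile were sought among 9974 others, as the smallest root mean square difference of log2 CPM over the 6 libraries after centring each gene on its own mean. For Nr4a1 these were the kinase gene Jak3 (difference 0.0666), the chemokine gene Cx3cl1 (0.0667) and the chaperone gene Hsph1 (0.0680). Hsph1 stood at 89.9, 63.8 and 58.3 CPM in DMSO and 134, 149 and 150 CPM in iBRD9. Like Nr4a1 it was highest in replicate 1 among the DMSO libraries. For Nr4a2 they were the growth factor receptor gene Fgfr2 (0.0303), Etnk1 (0.0494), whose product makes phosphoethanolamine, and Zmym6 (0.0501), and for Nr4a3 they were Mdfic (0.0307), Prss12 (0.0410) and the deubiquitinase gene Mindy1 (0.0425). Fgfr2 stood at 54.0, 48.3 and 43.7 CPM in DMSO and 92.1, 84.3 and 86.8 CPM in iBRD9. Mdfic stood at 163, 202 and 195 CPM in DMSO and 62.7, 57.5 and 55.3 CPM in iBRD9, with DMSO replicate 1 the lowest of its group as for Nr4a3. With 3 libraries in each of 2 groups, such profiles mostly follow the difference between DMSO and iBRD9. The DMSO replicate 1 positions that Hsph1 and Mdfic share with Nr4a1 and Nr4a3 follow from choosing them on these same libraries.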

How the data were processed

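Total RNA of 6 Melb-a cultures was poly(A)-selected and reverse transcribed from random hexamers, per the labels' protocols. The values are raw read counts per Ensembl gene, as deposited by the authors. Per the submitters' processing notes, CASAVA 1.8.2, Bowtie2 2.4.5 and GRCm39 were used. How reads were counted, with which annotation and strand setting, is not given in the sources used here. Of 35275 IDs, 34490 matched a symbol, and the rest held 0.0899% of counts.

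Genes were filtered by filterByExpr (minimum count 10), scaled by TMM (trimmed mean of M values) and tested in edgeR 4.0.16 (R 4.3.3) by the quasi-likelihood F-test with treatment as the only term, using all 6 libraries. P-values were adjusted over all 13602 tested genes by the Benjamini-Hochberg method and called under 0.05. The SE is the absolute log2 fold change over the square root of F. Tests are two-sided. Lengths are merged exons of GENCODE M21 (GRCm38), an older build than the authors', used for length only, and the promoters are of GRCm38.p6 too, so neither coordinate applies to the build of the counts.

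The members and the 7 gene lists were chosen with earlier results of these data known. The text names the members, up to 2 rising and 2 falling called genes per list at a mean log2 CPM of 1 or more, Rxra, Rxrb, Rxrg, Creb1, Mc1r, Crem and Sik1, and the 3 genes most like each member at a mean log2 CPM of 2 or more. The fit was first tested on simulated counts. No pair of libraries was a duplicate (chi-square per degree of freedom at least 1.93). Alternatives were DESeq2 1.42.0 and its size factors, library size alone, limma-voom (limma 3.58.1), other filters, a replicate block, an adjusted p under 0.01, and each library left out. Those on gene length were added after seeing the data.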

Additional observations from a re-analysis of the deposited data

How the results depend on the processing

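Nr4a1, Nr4a2 and Nr4a3 kept their direction and stayed past the threshold in all 14 alternatives, with log2 fold changes of 0.91 to 1.24, 0.80 to 0.98 and -1.73 to -1.55. Their highest adjusted p-values were 0.00430, 0.00399 and 0.000131. The log2 ratio of Nr4a3 to Nr4a1 changed by -2.98 to -2.56 and that of Nr4a3 to Nr4a2 by -2.68 to -2.44 over 8 alternatives. Without 1 library the smallest exact p is 0.2, so these tests say nothing on stability. Genes called ranged from 6072 at an adjusted p under 0.01 to 10311 without DMSO replicate 1, and scaling by library size gave 4999 rises and 3385 falls, against 4057 and 4205, with the median log2 fold change of all genes at 0.11.

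Under library size alone 10 genes of the protein kinase C, MAP kinase and MEF2 list were called higher. In the list of partners and coregulators 3 genes were called lower at an adjusted p under 0.01 and likewise without DMSO replicate 2, with 3 to 9 over all libraries left out in turn. The cause was not tested. Sik1, which passed in no setting, changed sign with library size alone (0.0911), with a filter at 1 CPM (0.00742) and without DMSO replicate 3 (0.000996), and ran from -0.0417 to 0.000996 with 1 library left out. Crem likewise changed sign without a filter (-0.00334), without DMSO replicate 3 (-0.11), without iBRD9 replicate 1 (-0.03) and without iBRD9 replicate 3 (-0.02), and ran from -0.114 to 0.0961 with 1 library left out. Adcy6, which did not pass either, changed sign with library size alone (0.0846), with a filter at 1 CPM (0.000913) and without iBRD9 replicate 2 (0.0136), and ran from -0.0697 to 0.0136 with 1 library left out. With the lengths of the basic annotation the NR4A sum was 149.6 and 73.0 CPM per kb, and Nr4a1 made up 38.3% in iBRD9.

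The replicate numbers are not stated to pair the cultures. Same-numbered libraries deviated together with correlations of 0.118, 0.060 and 0.025, and DMSO replicate 3 correlated best with iBRD9 replicate 2 (0.047). Replicate 1 of either group had negative correlations with replicates 2 and 3 of the other (-0.0996 to -0.0447). With correlations this small and mixed, the check cannot decide whether same-numbered cultures were paired. The main fit took no pairs, since the labels state none. With a replicate block 7937 genes were called, and Nr4a1, Nr4a2 and Nr4a3 had log2 fold changes of 1.06, 0.88 and -1.66. The differences of the ratios within replicate numbers, which also form a replicate block, had SDs of 0.623 for Nr4a3 to Nr4a1, 0.229 for Nr4a3 to Nr4a2 and 0.396 for Nr4a2 to Nr4a1. Depth limits Nr4a2 most, at 101 to 120 reads per DMSO library.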
